A study of Arabidopsis thaliana with 12 samples.

Results

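The 5 genes described here encode enzymes of histidine, purine nucleotide and arginine synthesis in Arabidopsis thaliana: AT2G35390, AT-HF (AT4G26900, also called HISN4), AT1G31220, AT3G06200 and AT5G10920. They are 5 of the 691 genes that have an array feature carrying their name alone, on an array of 3439 features. They were chosen by their role in these pathways and selected on the measured log2 difference between the same proline and water arrays, since an earlier look had shown a difference for each of them. Their own differences are therefore a description: no p is given for them, and their calls are stated only as what led to their choice.

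RNA was taken from wild-type plants of the ecotype Wassilevskija. One group of 6 samples came from plants given water, and the other group of 6 from plants given proline at 100 mM for 3 h, a dose the labels tie to toxic proline levels in the cells. Both groups share the wild-type genotype and the ecotype, and the time of the water treatment, the plant part and the plant age are not given in the sources used here. Whether the replicates are separate plants, pools of plants or repeat hybridisations of one RNA is likewise not given, so the spread between samples may be technical.

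Phosphoribosyl pyrophosphate (PRPP) is an activated sugar phosphate that starts both the histidine and the purine pathway. The 2 pathways meet again at the enzyme encoded by AT-HF, because the reaction that closes the imidazole ring of histidine releases AICAR, an intermediate of purine synthesis. Arginine synthesis ends with the cleavage of argininosuccinate, and arginine breakdown yields ornithine, from which plants can also make proline. In plants much of the synthesis of histidine, purines and arginine takes place in the plastid, with its enzymes encoded in the nucleus.

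The values were relative intensities with a highest value of 100 over all arrays, and each array listed 453 to 534 of its features at 0. All 5 genes had a value above 0 on all 12 arrays and none reached the ceiling on any array, so none depended on the filter for features with missing values. Intensities of different features are not comparable as amounts of RNA, and levels are therefore compared only within a gene. In a bulk sample, fewer cells of one type and less RNA per cell cannot be told apart.

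After proline the features of 4 of these genes were brighter and that of 1 was dimmer, and the size of the difference varied widely among them. The guanylate kinase AT3G06200 had a log2 difference (proline minus water) of 3.29 and AT-HF one of 2.56, while the PRPP synthetase AT2G35390 had 0.82 and the argininosuccinate lyase AT5G10920 had 0.59. AT1G31220, an enzyme within the purine pathway, had a log2 difference of -0.52. In the fit over all 2861 tested features, 44.1% passed an adjusted p of 0.05 (limma, Benjamini-Hochberg), 18.3% as higher and 25.9% as lower after proline. Among the 576 tested features that carry 1 gene, the share was 46.5%. All 5 genes were among those calls, 4 higher and 1 lower, and nothing is read from that count because the calls led to their choice. With successive replicates averaged, 3 were called higher and 0 lower, without AT1G31220 and AT5G10920. That fit called 661 of all 2861 tested features, 321 as higher and 340 as lower. AT1G31220 was also not called in the values as deposited, nor AT5G10920 without water replicate 5 or without proline replicate 5.

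**Figure D1:**
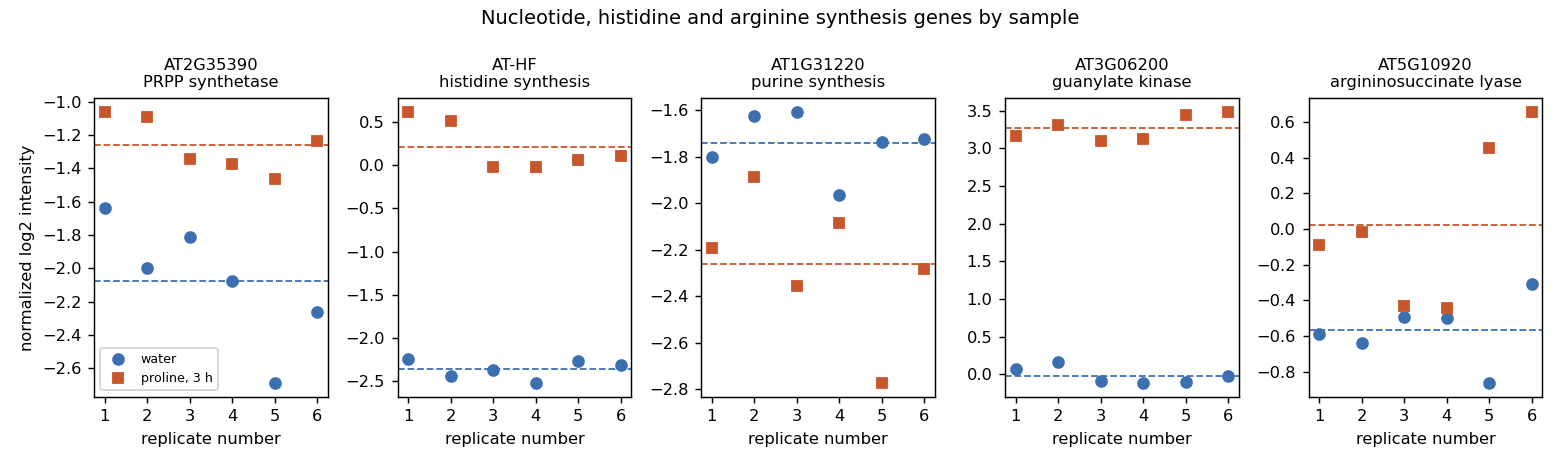
Normalized log2 intensity (vertical axes, each with its own range) of the 5 genes by replicate number (horizontal axes), with water as circles, proline as squares and dashed lines at the group means (n = 6 each). The groups lie apart for AT-HF, AT3G06200 and AT2G35390 and overlap for AT1G31220 and AT5G10920.

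The first reaction shared by the histidine and purine pathways is the synthesis of PRPP from ribose 5-phosphate and ATP, which AT2G35390 encodes. Its deposited intensity in water had a lowest value of 0.160, a median of 0.220 and a highest value of 0.288. After proline the lowest value was 0.417, the median 0.470 and the highest 0.524. Every proline sample was thus above every water sample. The mean was 0.223 ± 0.0427 for water and 0.471 ± 0.0446 for proline (SD, n = 6 each). On the normalized scale the difference was 0.82 ± 0.16 (SE) in log2, or 1.76-fold. The water samples were the more spread group, with an SD of 0.37 in log2 against 0.16 after proline. Water replicate 5 was the lowest, at -2.69 on the normalized log2 scale, and water replicate 1 the highest, at -1.64. The gap between the groups, from the highest water sample to the lowest proline sample, was 0.17 in log2.

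AT-HF encodes a plastid enzyme with a glutamine amidotransferase and a cyclase part, which makes imidazole glycerol phosphate and AICAR. In water its deposited intensity had a lowest value of 0.165, a median of 0.188 and a highest value of 0.207. After proline the lowest value was 1.04, the median 1.22 and the highest 1.71. The groups were far apart, with a gap of 2.21 in log2 between the highest water and the lowest proline sample. The means were 0.187 ± 0.0170 and 1.31 ± 0.271 (SD, n = 6 each), and the normalized difference was 2.56 ± 0.13 (SE) in log2, or 5.92-fold. Here the proline group was the more spread, with an SD of 0.28 in log2 against 0.11 in water. Proline replicates 1 and 2 stood above the others, at 0.62 and 0.51 on the normalized log2 scale, while replicates 3 to 6 lay between -0.027 and 0.10.

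AT1G31220 encodes the phosphoribosylglycinamide formyltransferase that adds a formyl group to the growing purine skeleton. Its deposited intensity in water had a lowest value of 0.230, a median of 0.283 and a highest value of 0.289. After proline the lowest value was 0.156, the median 0.226 and the highest 0.284. The groups overlapped, since the highest proline samples lay within the range of the water samples. The means were 0.272 ± 0.0237 and 0.224 ± 0.0439 (SD, n = 6 each), and the normalized log2 difference was -0.52 ± 0.14 (SE). Proline replicate 5 was the dimmest sample, at -2.77 on the normalized log2 scale, and proline replicate 2 the brightest of its group, at -1.89. The size of the difference depended on the scaling, with a log2 value of -0.30 in the intensities as deposited. One further feature lists AT1G31220 together with other genes and is not described by name.

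AT3G06200 encodes a guanylate kinase of the organelles, which converts GMP to GDP after the purine ring is complete. Its deposited intensity in water had a lowest value of 0.794, a median of 0.874 and a highest value of 1.01. After proline the lowest value was 8.77, the median 10.5 and the highest 11.2. The gap between the groups was 2.92 in log2, wider than for any of the other 4 genes. The means were 0.887 ± 0.0878 and 10.2 ± 1.03 (SD, n = 6 each), and the normalized difference was 3.29 ± 0.098 (SE) in log2, or 9.76-fold. Its replicates were also the closest together of the 5 genes, with a pooled SD within groups of 0.14 in log2. Of all tested features, 8.28% had a smaller pooled SD.

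AT5G10920 encodes argininosuccinate lyase, which splits argininosuccinate into arginine and fumarate. Its deposited intensity in water had a lowest value of 0.4995, a median of 0.588 and a highest value of 0.737. After proline the lowest value was 0.812, the median 1.06 and the highest 1.74. As deposited the groups did not overlap, but after quantile normalization they did. The means were 0.599 ± 0.0774 and 1.18 ± 0.388 (SD, n = 6 each), and the normalized difference was 0.59 ± 0.19 (SE) in log2, or 1.501-fold. The proline samples fell into successive replicates of like value, with replicates 3 and 4 at -0.43 and -0.44 on the normalized log2 scale, 1 and 2 at -0.093 and -0.019, and 5 and 6 at 0.46 and 0.66. Its pooled SD of 0.35 in log2 was the largest of the 5 genes.

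The groups did not overlap on the normalized scale for 3 of the 5 genes, against 27.5% of the 2674 features that no array listed at 0. In the deposited intensities they did not overlap for 4 of the 5, against 25.7% of those features. Nothing is read from these counts, which come from the contrast that chose the genes. Among the log2 differences of all 2861 tested features, ranked from the highest, AT3G06200 was at place 10 and AT-HF at place 25. AT2G35390 was at place 327 and AT5G10920 at place 488, and AT1G31220 was at place 648 from the lowest. The median log2 difference was -0.12 over all tested features and 0.82 over the 5 genes. Part of these values depends on the scaling, because the median of all features was 0.057 as deposited, a shift of 0.17. Taken relative to the median of all features, AT1G31220 had a log2 difference of -0.40 after quantile normalization and -0.36 as deposited, and AT5G10920 had 0.70 and 0.87. AT2G35390 had 0.93 and 1.04 on the same 2 scales, AT-HF 2.68 and 2.73, and AT3G06200 3.40 and 3.46. On both scales each gene kept its side of the median.

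**Figure D2:**
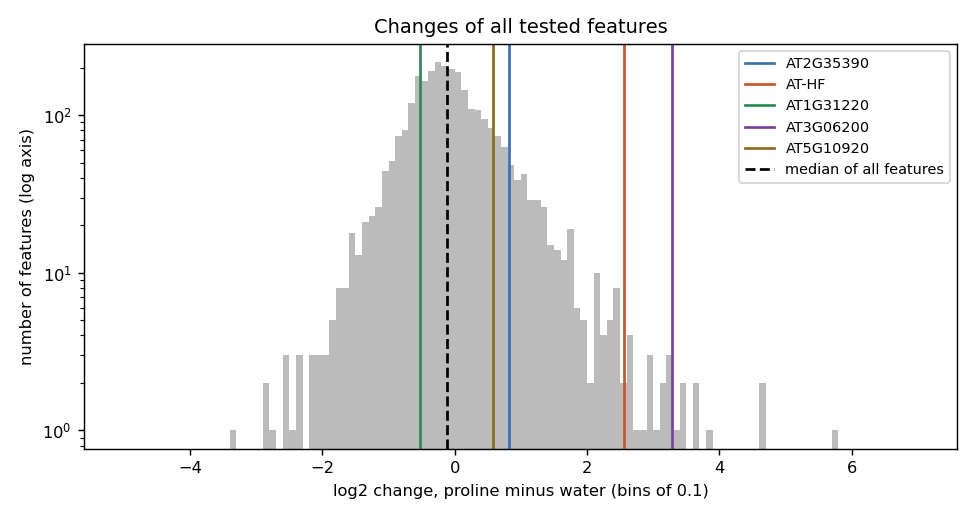
Number of features (vertical axis, log scale) by log2 difference of proline minus water in bins of 0.1 (horizontal axis) for the 2861 tested features, with the 5 genes as coloured lines and the median of -0.12 dashed. AT3G06200 and AT-HF lie in the thin upper tail, while the other 3 lie where many features do.

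Replicate numbers run from 1 to 6 in both groups, and samples with the same number resembled each other across the array, as did successive numbers within a group. The differences were therefore also taken number by number. AT3G06200 was higher after proline at all 6 numbers, by 3.10 to 3.54 in log2, and AT-HF by 2.33 to 2.94. AT2G35390 was higher at all 6, by 0.46 to 1.22. AT5G10920 was higher at all 6 as well, but by as little as 0.055 and as much as 1.32. AT1G31220 was lower at all 6, with values between -1.04 and -0.12 after normalization, whereas in the intensities as deposited it was lower at 5 and higher at 1. For AT3G06200, AT-HF and AT2G35390 the normalized groups did not overlap, so any pairing of the samples gives the same direction at all 6. The share of all features with the same direction at all 6 was not counted. Nothing is read from these counts, which come from the contrast that chose the genes.

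How the genes varied between successive replicates was not what chose them, and it differed from gene to gene. For AT5G10920 the difference averaged 0.056 in log2 over replicates 3 and 4, 0.56 over replicates 1 and 2, and 1.14 over replicates 5 and 6. In those 3 pairs its water samples deviated from their group mean by -0.048 (replicates 1 and 2), 0.070 (3 and 4) and -0.023 (5 and 6), and its proline samples by -0.077, -0.46 and 0.54. The variation thus lay mainly in the proline samples. For AT2G35390 the differences were 0.74, 0.58 and 1.12 in the same order of pairs, and the widest deviation was in the water samples of replicates 5 and 6, at -0.40. For AT-HF they were 2.90, 2.42 and 2.37, with the widest deviation in the proline samples of replicates 1 and 2, at 0.36. AT1G31220 had -0.33, -0.44 and -0.80, with proline replicates 5 and 6 at -0.27 from their group mean. AT3G06200 had 3.12, 3.21 and 3.53, and its widest deviation was 0.19, in proline replicates 5 and 6. Replicates 5 and 6 thus gave the widest difference for 4 of the 5 genes, in the direction each had, and the narrowest for AT-HF. The share of all features with their widest difference in that pair was not counted, so this is not read as a trait of these genes.

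**Figure D3:**
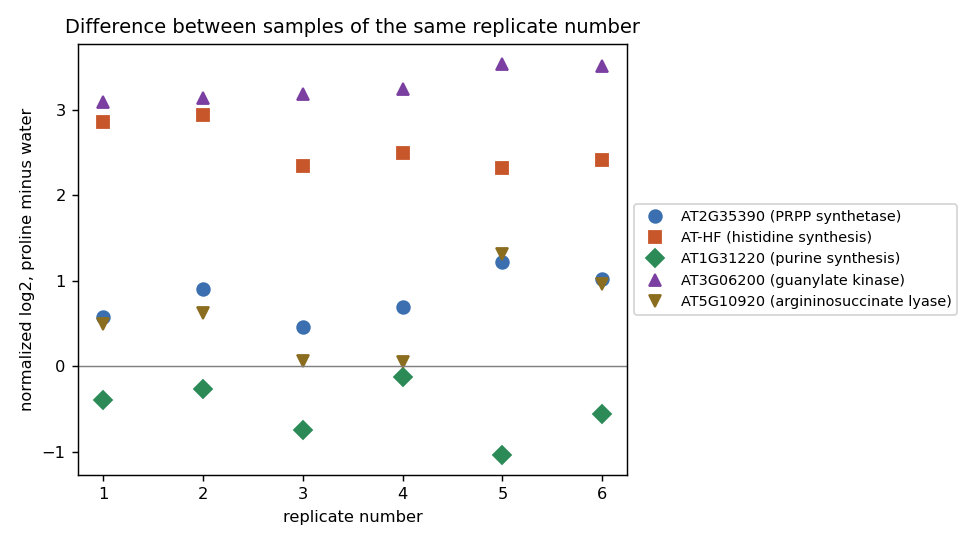
Normalized log2 difference of proline minus water (vertical axis) between samples of the same replicate number (horizontal axis), 1 point for each gene and number. AT3G06200 and AT-HF stay above 2.3 throughout, and AT5G10920 ranges from 0.055 to 1.32.

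Few other genes of these pathways could be set beside the 5. The lists of 10 pathways covered histidine, PRPP, purine, pyrimidine, arginine, proline and other amino acid synthesis, and of their 163 loci 10 had a feature of their own, the 5 described here included. Of 11 histidine synthesis genes only AT-HF had one, and of 37 genes of purine synthesis, salvage and nucleotide kinases only AT1G31220 and AT3G06200. Of 14 genes of arginine synthesis and breakdown only AT5G10920 had one, and none of the pyrimidine (13 genes) or proline (6 genes) lists did. The order of steps can thus be read for single enzymes and not for whole pathways.

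None of the other 5 genes with a feature of their own passed the test (limma, Benjamini-Hochberg over all 2861 features), where 44.1% of the tested features did, or 46.5% of the ones carrying 1 gene. These 5 are the listed genes left after the ones with a difference in this contrast had been chosen. That choice shapes the counts for them, so nothing is read from how far they lie from the shares of all features. An unadjusted p under 0.05 was found for 0 of the 5, beside 51.4% of all tested features. It was found for 1 of the 5 in the values as deposited (AT3G58610). Without water replicate 1 it was found for 1 of the 5 (AT2G44530, adjusted p = 0.0591 by limma). The median log2 difference of these 5 genes was 0.077, against -0.12 over all tested features. Replicates of AT3G53580, CBL and AT3G23940 were widely spread, as 95.4%, 85.5% and 76.4% of all tested features had a smaller pooled SD. For AT3G58610 and AT2G44530 these shares were 33.4% and 19.5%. AT2G44530, a PRPP synthetase gene like AT2G35390, had mean intensities of 0.230 ± 0.0324 (water) and 0.235 ± 0.0212 (proline), as SD with n = 6 each. Its log2 difference was -0.16 ± 0.12 (SE, adjusted p = 0.272 by limma), or -0.25 to -0.10 with 1 sample left out, beside 0.82 for AT2G35390, and the groups overlapped. The difference between the 2 synthetase genes was not tested, because AT2G35390 was chosen for its change. In the values as deposited the log2 difference of AT2G44530 was 0.035 (adjusted p = 0.820 by limma).

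The remaining 4 belong to other amino acid pathways. AT3G58610, the ketol-acid reductoisomerase of branched-chain amino acid synthesis, had mean intensities of 0.287 ± 0.0518 for water and 0.382 ± 0.0355 for proline (SD, n = 6 each). Its log2 difference was 0.14 ± 0.13 (SE, adjusted p = 0.446 by limma), or 0.047 to 0.22 with 1 sample left out, and in the values as deposited it was 0.43 and passed (adjusted p = 0.0172 by limma). AT3G23940, the dihydroxyacid dehydratase that acts next in that pathway, had a log2 difference of 0.077 ± 0.25 (SE, adjusted p = 0.834 by limma), and its sign turned with the scaling. AT3G53580, the diaminopimelate epimerase of lysine synthesis, had one of 0.51 ± 0.64 (SE, adjusted p = 0.548 by limma), with proline replicate 1 listed at 0 and left out of the fit. Its log2 difference was 1.0003 without proline replicate 2 and 0.22 without water replicate 1, and passed in neither case (limma).

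CBL, the cystathionine beta-lyase of methionine synthesis, had a log2 difference of -0.34 ± 0.34 (SE, adjusted p = 0.446 by limma), or -0.55 to -0.20 with 1 sample left out. In water, replicates 1 to 4 had deposited intensities of 0.197 to 0.265, and replicates 5 and 6 had 0.0947 and 0.104. After proline, replicates 1, 3 and 4 had 0.0877 to 0.115, replicates 2 and 6 had 0.173 and 0.178, and replicate 5 had 0.282. The proline sample was lower than the water sample of the same number for replicates 1 to 4 and higher for replicates 5 and 6.

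**Figure D4:**
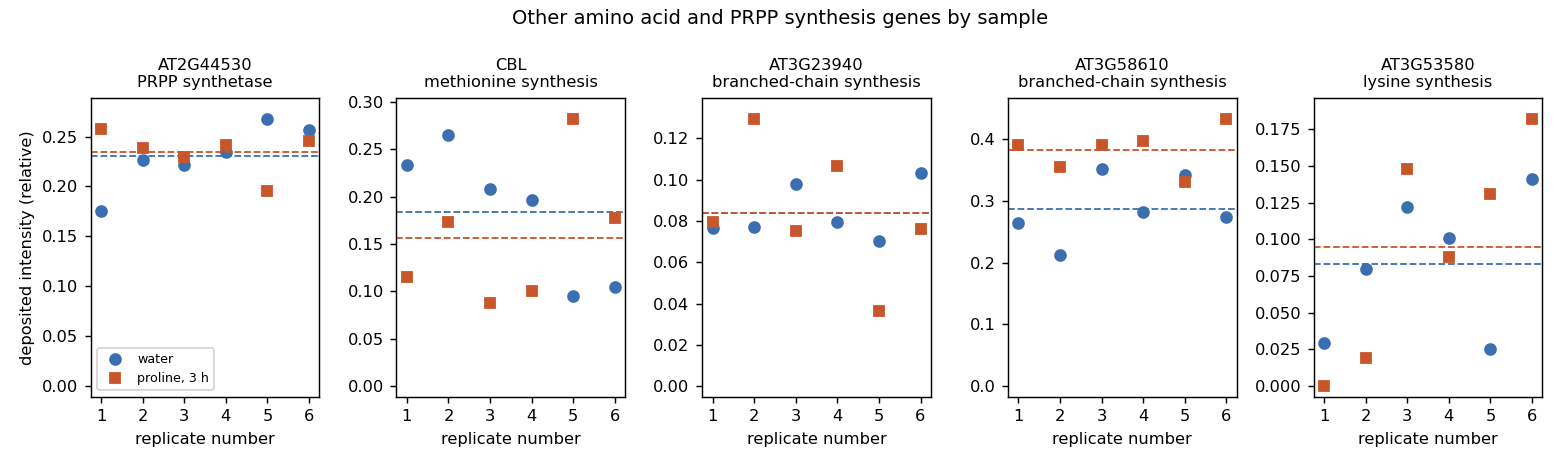
Deposited relative intensity (vertical axes, each with its own range) of the other 5 genes on the pathway lists by replicate number (horizontal axes), with water as circles, proline as squares and dashed lines at the group means (n = 6 each). The groups overlap in every panel, and the proline value of CBL is below the water value at replicates 1 to 4 and above it at 5 and 6.

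**Figure D5:**
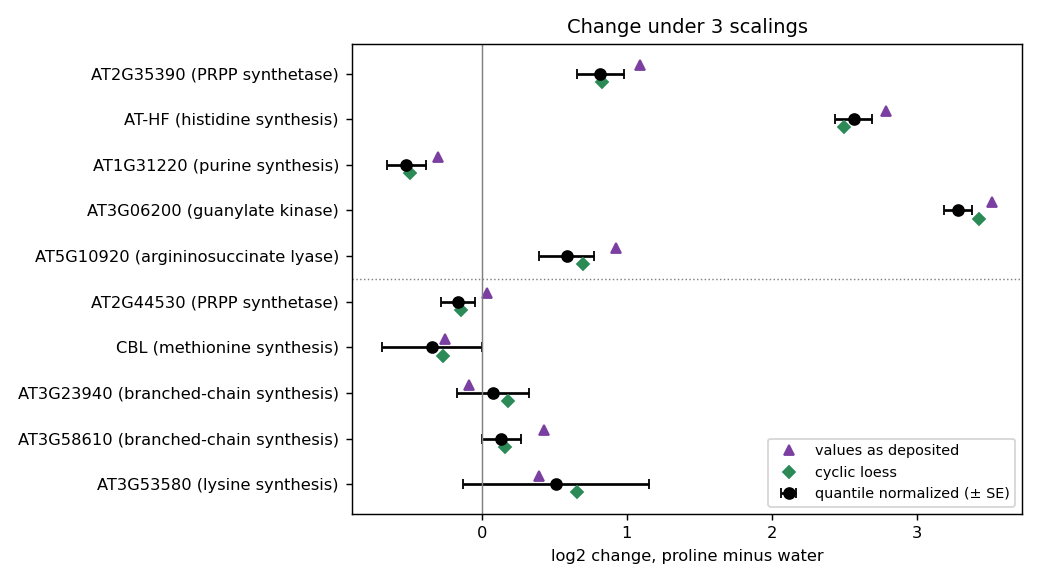
Log2 difference of proline minus water (horizontal axis) of the 5 genes and, under the dotted line, of the other 5 genes on the pathway lists, as quantile-normalized values (circles with SE), values as deposited (triangles) and after cyclic loess (diamonds). The 5 genes keep their sign under these 3 scalings, and AT2G44530 and AT3G23940 do not.

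A further 17 features list a gene of these pathways together with at least 1 other gene, so their signal cannot be given to one locus. Of the 14 that were tested, 0 were higher and 4 lower after proline (limma, Benjamini-Hochberg), beside 18.3% and 25.9% of all tested features. In the values as deposited 3 were higher and 3 lower, beside 702 and 483 of the 2861 tested features (limma). With successive replicates averaged none passed, beside 321 higher and 340 lower of the 2861 (limma). An unadjusted p under 0.05 was found for 5 of the 14, beside 51.4% of all tested features, both in the quantile-normalized values. It was found for 8 in the values as deposited and for 3 with successive replicates averaged. The share of all features with such a p was not counted in those fits, so these counts have no background here.

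The genes with the most similar profile over the 12 arrays were taken from the 534 other features that carry 1 gene and had a value on every array. Likeness was measured as the root mean square difference of normalized log2 profiles, each set to a mean of 0, and small values stand for similar profiles. Both the group difference and the replicate spread enter this measure, so near genes were picked in part for their group difference, which is given without a test. For AT-HF the nearest were AT2G36480 (0.24 in log2) and the ClpX-like AT5G49840 (0.29), against a median of 1.40 over all 534. Their own log2 differences were 2.62 and 2.25, beside 2.56 for AT-HF. For AT3G06200 the nearest were AT1G76450, a PsbP-domain protein of the thylakoid (0.33), and AT1G12800, with an S1 RNA-binding domain (0.36), against a median of 1.74. Their log2 differences were 3.69 and 2.67, on either side of the 3.29 of AT3G06200.

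For AT2G35390 the nearest profiles were those of AT5G40070 (0.21 in log2) and AT2G46300 (0.22), against a median of 0.65. For AT1G31220 they were those of AT4G21170, a pentatricopeptide repeat protein (0.14), and PIFI, a plastid protein named for a change in chlorophyll fluorescence after light (0.15), against a median of 0.49. For AT5G10920 they were those of NTRC, the plastid thioredoxin reductase (0.21), and MAMI, named as a membrane-associated mannitol-induced protein (0.26), against a median of 0.62. The log2 differences of NTRC and MAMI were 0.65 and 0.22, beside 0.59 for AT5G10920, so that of MAMI was clearly smaller. Those of AT5G40070 and AT2G46300 were 0.65 and 0.54, beside 0.82 for AT2G35390, and those of AT4G21170 and PIFI were -0.50 and -0.60, beside -0.52 for AT1G31220. None of the 5 genes was among the 2 nearest of another. The same 2 names came out for AT-HF, AT3G06200 and AT1G31220 under all 3 other scalings. For AT2G35390 and AT5G10920 1 of the 2 did so as deposited and after median scaling, and both after cyclic loess.

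The position of the genes on the chromosomes gave few neighbours to compare. Within 5 protein-coding genes on either side in the TAIR10.1 gene table, only AT2G35390, AT1G31220 and AT5G10920 had a neighbour with a feature of its own. These neighbours are named for their position, after their values were seen. AT5G10910, which lies directly beside AT5G10920, had a log2 difference of 0.0056 (adjusted p = 0.981 by limma). AT2G35450, 4 genes from AT2G35390, had one of 0.43 (adjusted p = 0.00557 by limma), and SRX near AT1G31220 had too few values to be tested.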

How the data were processed

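RNA of 12 samples was measured on one-colour arrays, and the groups were taken from the sample titles. The authors deposited a relative intensity for each feature, never negative and at most 100. How background and scaling were handled, and what a zero means, is not given in the labels. Values were log2-transformed after zeros were set to missing, then quantile normalized, and a feature was tested with at least 4 of 6 values above 0 in each group. Levels are means ± SD of deposited intensities. Differences come from limma 3.58.1 in R 4.3.3 (lmFit and eBayes, two-sided, no block), with Benjamini-Hochberg adjustment over 2861 features. The SE values come from the same fit and take the samples as independent, so they do not account for samples that deviate together. The fit was also run on simulated data with noise independent between samples, so that run does not cover samples that deviate together. Samples of the same replicate number deviated from their group means together (correlation 0.184 to 0.403 over 2674 features), as did successive numbers within a group (mean 0.206), which pairs samples by number; the pairing rests on the data, and the labels do not state it. As alternatives, the scaling, the filter and the handling of zeros were changed, the replicate block was added, successive replicates were averaged and each sample was left out in turn.

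Gene names come from the old GEO annotation of the platform and are used for features with 1 gene, and 690 of these 692 features matched a TAIR10.1 locus. The genes, pathway lists and tests were chosen with earlier results of these data known. Named are the 5 genes, every listed gene with its own feature and the 2 nearest profiles of each of the 5. The number of arrays limits the precision, and signal over background was not analysed here. No sequences of the genes or probes were used here.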

Additional observations from a re-analysis of the deposited data

How the results depend on the processing

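The log2 difference of each of the 5 genes kept its direction under all 20 alternatives. Not all of these could change it, because the 5 genes had a value on every array. For them the changed filters, the replicate block and the averaged successive replicates returned the same log2 difference as the main fit. The direction itself comes from the contrast that chose the genes. The range was 0.70 to 1.09 for AT2G35390, 2.47 to 2.79 for AT-HF, -0.59 to -0.30 for AT1G31220, 3.26 to 3.52 for AT3G06200 and 0.46 to 0.92 for AT5G10920. In each range the value farthest upward came from the intensities as deposited. With successive replicates averaged, 661 features passed instead of 1263, and with the replicate block 1360 did. Leaving out 1 sample gave 1185 to 1219 features. Of the other 5 pathway genes, 1 (AT3G58610) passed in the values as deposited, and 0 under each of the other 19 alternatives, the replicate block included. Leaving out 1 sample gave 0 throughout. The sign turned for AT2G44530 as deposited (0.035) and for AT3G53580 when zeros took the lowest value of their array (-0.94). It turned for AT3G23940 as deposited (-0.091), after median scaling (-0.29) and without proline replicate 2 (-0.070) or 4 (-0.0011), within a range of -0.070 to 0.29 over the samples left out. None of these values had an adjusted p under 0.05 (limma), and the cause was not tested. As deposited, 702 features were higher and 483 lower, against 523 and 740 after quantile normalization. Cyclic loess gave 598 and 605, and averaged successive replicates 321 and 340.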

Other observations

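In the 10 groups of 6 values of the 5 genes, no sample lay farther from the others than Dixon's limit, where chance gives about 0.5 such groups. That figure takes the samples as independent. Because successive replicates deviated together, the limit can miss a pair that lies apart from the rest.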
